A study of Mus musculus with 2 samples.

Results

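Cluster 11 was a group of hepatic cells that the deposited annotation named NK and that the study's clustering placed apart from the other NK cells. Its members were taken as every cell with the name NK and the cluster number 11 in the filtered cell table, which gave 365 of 11929 cells. The cells of cluster 11 made up 365 of the 1374 cells named NK, and no cell of another name carried that cluster number. The cluster was read against the other main NK clusters, cluster 3 with 569 cells and cluster 8 with 440 cells, and against cluster 12, a group of 322 cells named CD8αβ T.

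The cells were CD45+ hepatic mononuclear cells of 10-week-old C57BL/6 mice, stained with 49 antibodies that carry sequence tags and captured in microwells for whole transcriptome counting. TG cells came from dnTGFβRII mice, which express a dominant negative TGF-β receptor II from a mouse CD4 promoter, and WT cells from wild type mice. TG cells had been captured in 1 library together with IFN-γ ARE-Del-/- cells, and WT cells in a second library together with P40-/-IL-2Ra-/- cells. Only the TG and WT cells are in the filtered table, with 4647 and 7282 cells. There was 1 library per genotype, so genotype and library cannot be told apart, no test between genotypes was possible, and every fold below is a description of these libraries. The number of mice behind each library is not given in the sources used here.

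Natural killer (NK) cells are cytotoxic lymphocytes that recognise targets without a rearranged antigen receptor, and they are abundant in the liver. As they mature they lose CD27 and gain KLRG1, the fractalkine receptor CX3CR1 and the sphingosine phosphate receptor S1PR5, which is needed for their exit into blood. In the mouse they carry variegated combinations of Ly49 receptors, encoded by the Klra genes on chromosome 6, that bind MHC class I, and they share the liver with ILC1, tissue-resident relatives that display the integrin CD49a. T cells are set apart from both by the CD3 complex and the T cell receptor, although KLRG1, CX3CR1, NK1.1 and Ly49 proteins can also appear on T cells.

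Cluster 11 came almost wholly from the TG library. It held 343 TG cells and 22 WT cells, so that TG cells were 93.97% of the cluster (exact binomial 95% interval 91.02 to 96.18), against 38.96% of all cells. Within the cells named NK, cluster 11 took 45.19% in TG (41.61 to 48.81) and 3.577% in WT (2.255 to 5.366). Cluster 3 took 34.65% and 49.76% and cluster 8 took 20.16% and 46.67%, so cluster 11 was the largest of these NK clusters in TG and the smallest in WT. Of all cells, it was 7.381% in TG (6.646 to 8.171) and 0.3021% in WT (0.1894 to 0.4571). Intervals here and throughout cover counting error only. A cluster drawn so largely from 1 library may be a feature of that library and not a kind of cell, and the share cannot be separated from how the study merged the libraries before clustering.

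**Figure D1:**
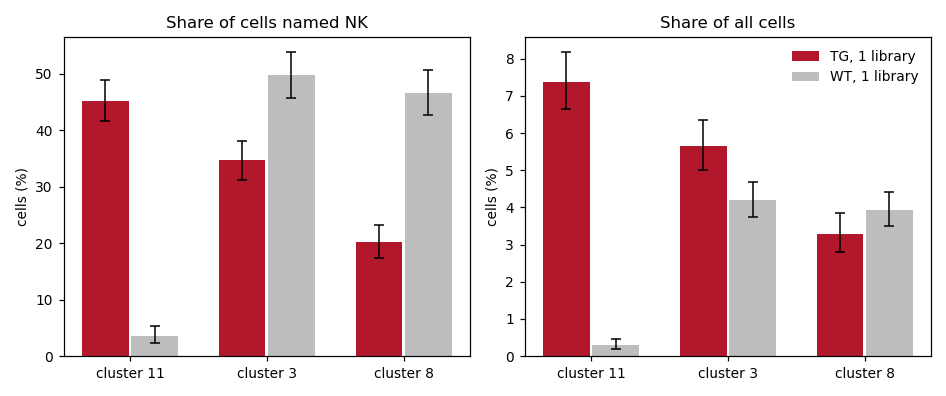
Bars give the percentage of cells named NK (left) and of all cells (right) that lay in clusters 11, 3 and 8, for TG (red) and WT (grey), with exact binomial 95% intervals and 1 library per bar. Cluster 11 stood at 45.19% of NK-named cells in TG and 3.577% in WT.

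Depth set how firmly the WT cells could be described. Summed over cells, TG cluster 11 held 927826 unique molecular identifiers (UMIs, counted molecules) and WT cluster 11 held 46296, so 1 UMI was worth 1.078 CPM (counts scaled to a library sum of 1000000) in TG and 21.6 CPM in WT. Median UMIs per cell were 2528 (range 1378 to 7614) in TG cluster 11 and 1789 (range 1154 to 5107) in WT cluster 11, with medians of 1318 and 1056 genes. A doublet caller marked 1 cell of the cluster in each library. The filtered libraries shared 36 cell index numbers and the unfiltered ones 267. The index of 10 TG cells of cluster 11 was also in the unfiltered WT library, and that of 0 WT cells of the cluster in the unfiltered TG library. In TG, cluster 11 was shallower than clusters 3, 8 and 12, whose median UMIs were 2958, 3459 and 2655.

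The targeted receptor gives no full check of the genotype, because reads of the transgene and of mouse Tgfbr2 (chromosome 9, 116084293 to 116175360, minus strand, mm10) were not separated here. Counts assigned to Tgfbr2 were 332 CPM (295.9 to 371.2) in TG cluster 11 and 86.4 CPM (23.54 to 221.2, 4 UMIs) in WT cluster 11, which put TG above WT by 1.94 on the log2 scale (0.57 to 3.83). This difference was also positive in cluster 3 (1.24), cluster 8 (1.63) and cluster 12 (1.28), and it was -0.21 in mature B cells. Among the TG sets, Tgfbr2 in cluster 11 differed little from the others, with log2 ratios of -0.22 against cluster 3, -0.19 against cluster 8 and -0.30 against cluster 12.

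The 5 marker genes given for the cluster were all present in its TG cells. Of the 4 TG sets, Klrg1 and Klra1 were highest in cluster 11, Cx3cr1 was alike in clusters 11 and 12, S1pr5 was highest in cluster 12 and Cmklr1 in cluster 8. Cx3cr1, the fractalkine receptor (chromosome 9, 119901616 to 120069879, minus strand), stood at 1030 CPM (966.1 to 1098) in TG cluster 11, with 60.82 in cluster 3, 353.8 in cluster 8, 1026 in cluster 12 and 8.929 in mature B cells. In WT, Cx3cr1 stood at 432 CPM (263.9 to 667.2) in cluster 11, with 4.797, 39.96, 236.8 and 2.472 in clusters 3, 8, 12 and B cells. Cluster 11 was thus high in both libraries and was matched in TG by the CD8αβ cells alone among these sets. On the log2 scale Cx3cr1 was 4.08 above cluster 3 (3.66 to 4.53, 16.94-fold), 1.54 above cluster 8 (1.32 to 1.77) and 0.01 from cluster 12 (-0.13 to 0.15).

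The other markers each had their own order. Klrg1, an inhibitory lectin-like receptor of terminally mature cells (chromosome 6, 122270596 to 122282882), was 1128 CPM in TG cluster 11, against 567.6 in cluster 3, 562.5 in cluster 8 and 854.9 in cluster 12. S1pr5, the egress receptor (chromosome 9, 21242912 to 21248443), was 439.7 CPM in TG cluster 11, against 86.16, 290.1 and 532.3. Neither receptor differed by 2-fold or more between cluster 11 and the CD8αβ cells of cluster 12. Cmklr1, a chemerin receptor of mature NK cells (chromosome 5, 113612354 to 113650426), was 115.3 CPM against 24.07, 166.3 and 39.48, and was seen in 81 of 343 cells. Klra1, the Ly49A receptor (chromosome 6, 130363917 to 130386874), was 689.8 CPM against 166, 261.8 and 12.25, which put it 56.3-fold above cluster 12 (log2 5.82, 4.88 to 6.95). Of the 5 markers, Klra1 was the one that parted cluster 11 from all 3 other TG sets by 2-fold or more. In the 22 WT cells Klrg1 was 475.2 CPM, S1pr5 324, Klra1 259.2 and Cmklr1 43.2 (2 UMIs), each above WT cluster 3. Klrg1 and Klra1 were also above WT cluster 8 (227.4 and 92.32 CPM), while the interval of S1pr5 (181.3 to 534.4) covered its 203.9 CPM.

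**Figure D2:**
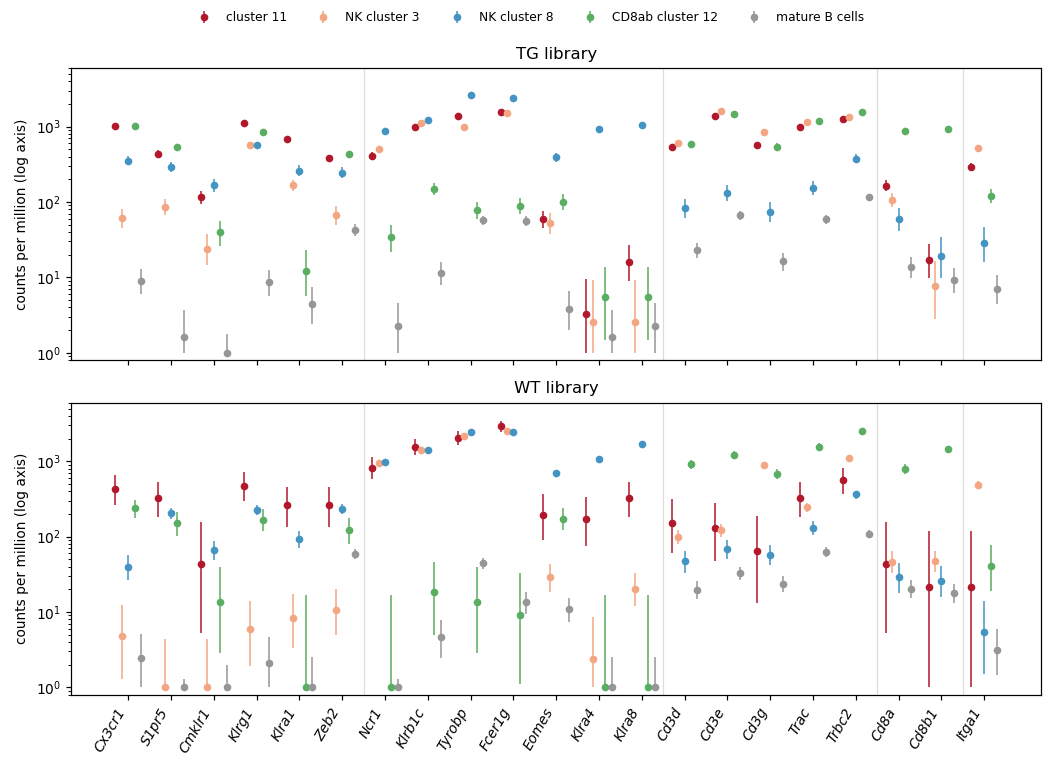
Points give CPM on a log axis for 21 marker genes summed over the cells of cluster 11 (red), clusters 3 (orange), 8 (blue) and 12 (green) and mature B cells (grey), in the TG (top) and WT (bottom) libraries, with Poisson 95% intervals and values under 1 CPM drawn at 1. In TG the red point of Cd3e (1401 CPM) lies beside the green one (1458 CPM), and in WT it lies below it (129.6 and 1202 CPM).

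A list of 16 genes of mature NK cells, the 5 markers among them, was read as a group. In TG cluster 11, 12 of 16 were at least 2-fold higher than in cluster 3 and 0 were lower, with a median log2 ratio of 2.02. Over all genes with 30 or more UMIs in that comparison, 2.13% were at least 2-fold higher and 4.76% lower, with a median of -0.07. Against cluster 8, 6 of 16 were higher and 2 lower (median 0.58), beside 4.50% higher and 3.38% lower of all genes. Against cluster 12, 4 of 16 were higher and 0 lower (median 0.16), beside 3.36% and 2.01% of all genes. The clusters were built from these same genes, so the counts describe the partition and carry no test.

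Members of the mature list differed in their order over the sets. Zeb2, a transcription factor of terminal maturation, was 383.7 CPM in TG cluster 11 and 67.15, 245.9 and 431.5 in clusters 3, 8 and 12. Ly6c2, a surface antigen of mature and memory cells, was 2800 CPM and 575.2, 613.9 and 1890. Klf2, a factor that maintains the egress programme, was 804 CPM and 202.7, 707.6 and 928.4. In all 3, cluster 11 lay over 2-fold above cluster 3 and within 2-fold of cluster 12. Itgam, the CD11b chain used to stage NK cells, was instead 91.61 CPM in TG cluster 11, with 11.4 in cluster 3, 495.3 in cluster 8 and 27.23 in cluster 12. Cma1, a mast cell chymase gene that NK cells also transcribe, had the same order as Itgam, with 103.5 CPM against 1.267 (1 UMI), 422.8 and 8.168. Both were therefore lower in cluster 11 than in cluster 8, by 2.44 (Itgam, 2.08 to 2.80) and 2.03 (Cma1) on the log2 scale.

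The name NK did not hold for the TG cells when it was read against the T cell genes. Cd3e (chromosome 9, 44998740 to 45009627), a chain of the CD3 complex, was 1401 CPM (1326 to 1479) in TG cluster 11, 1608 in cluster 3, 132.7 in cluster 8, 1458 in cluster 12 and 67.28 in mature B cells. Cluster 11 thus matched the CD8αβ T cells (log2 -0.06, -0.18 to 0.06) and stood 10.56-fold above cluster 8 (log2 3.40, 3.06 to 3.76). Its neighbours Cd3g and Cd3d, which encode the other CD3 chains (chromosome 9, 44969572 to 44980431 and 44981786 to 44987339), were 576.6 and 529.2 CPM, against 74.3 and 83.14 in cluster 8. The T cell receptor constant genes followed, with Trac at 991.6 CPM against 153.9 in cluster 8 and 1199 in cluster 12, and Trbc2 at 1276 against 375 and 1556. Trbc1 was 339.5 CPM, no higher than the 348.5 of cluster 8. In the list of T cell identity genes, 9 of 12 with enough counts were at least 2-fold higher than in cluster 8 and 0 were lower (median log2 2.21), beside 4.50% and 3.38% of all genes.

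The 22 WT cells did not share this. Cd3e was 129.6 CPM (47.56 to 282.1, 6 UMIs) in WT cluster 11, 122.3 in WT cluster 3, 67.52 in cluster 8 and 1202 in cluster 12. In these cells Trac was 324 CPM against 244.7, 130.9 and 1566, and Cd3g was 64.8 against 880.3, 57.87 and 678.4. The cell marked as a doublet held 3 of the 6 Cd3e UMIs and 6 of the 15 Trac UMIs, and without it Cd3e was 72.83 CPM (15.02 to 212.9) and Trac 218.5. Against WT cluster 8, 2 of 8 T cell identity genes were higher and 0 lower (median 0.70, or 0.65 with sums of 0 taken at 3 UMIs), beside 6.85% higher and 13.1% lower of all genes. Against WT cluster 12, 14 of 14 were lower (median -2.37, or -2.60 with that floor), beside 7.98% higher and 12.7% lower of all genes. No T cell identity gene reached the UMI minimum for a comparison on the counts of WT cluster 11 alone (87 UMIs over 16 genes). The count of 14 was thus partly set by that minimum. Summed over all 16 genes, with no minimum, the level was 1879 CPM in WT cluster 11, 1320 in cluster 8 and 11833 in cluster 12.

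Cell by cell, the same split appeared. A UMI of any CD3 gene was present in 341 of 343 TG cells of cluster 11, 99.42% (97.91 to 99.93), and in 95.06% of TG cluster 3, 30.07% of cluster 8 and 99.2% of cluster 12. Thinned to 1000 UMIs per cell, the shares were 93.59%, 89.35%, 15.69% and 90.76%. Mature B cells, which should lack CD3, gave a background of 26.17% in TG, or 10.41% thinned, over 1028 cells at a median of 2898 UMIs. Every cell of these sets held over 1000 UMIs, so thinning left none out. In WT cluster 11 a CD3 UMI was present in 5 of 22 cells, 22.73% (7.821 to 45.37), or 13.64% thinned, against 21.25% in WT cluster 8 and 13.39% in WT mature B cells (11.85% and 6.998% thinned, at medians of 2290 and 1978 UMIs). The CD3 share of the WT cells was therefore close to that of cluster 8, and its interval reached below the B cell background. In WT cluster 3, also named NK, 67.32% of cells held a CD3 UMI together with an NK receptor UMI (44.44% thinned), and Cd3g was 880.3 CPM. A UMI of any CD3 gene thus did not by itself separate T cells from cells named NK.

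T cell lineage genes were not all at the level of cluster 12. Cd8b1, the CD8β chain, was 17.24 CPM in TG cluster 11 and 942.1 in cluster 12, 54.63-fold lower (log2 -5.77, -6.59 to -5.06), and its share of cells, 3.79%, lay close to the 2.821% of mature B cells. Cd5, a brake on antigen receptor signalling, was 9.7 CPM against 113 in cluster 12, Cd6 12.93 against 111.6, and Themis, a thymic selection factor, 7.545 against 107.5. All 3 are genes of conventional αβ T cells and were also low in cluster 3 (Cd5 40.55, Cd6 22.81 and Themis 8.869 CPM) and in cluster 8 (8.845, 1.769 and 0 CPM). Bcl11b, the T lineage commitment factor, was intermediate at 158.4 CPM, against 157.1 in cluster 3, 21.23 in cluster 8 and 446.5 in cluster 12. Of 16 T cell identity genes, 7 were at least 2-fold lower than in cluster 12 and 0 were higher (median -0.84), beside 2.01% of all genes lower and 3.36% higher. Against cluster 3, 0 of 14 were higher and 4 lower (median -0.21), beside 2.13% and 4.76%.

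Coreceptor transcripts varied among the TG cells. Cd8a was 164.9 CPM in TG cluster 11, with 107.7, 60.15 and 874 in clusters 3, 8 and 12, and Cd4 was 227.4 CPM, with 546.1, 122.1 and 291.3. Of the 343 cells, 107 had a Cd4 UMI and no Cd8a UMI (31.2%), 77 had Cd8a alone (22.45%), 17 had both (4.956%) and 142 had neither (41.4%). The 94 cells with Cd8a differed little from the 249 without it in Cd3e (1294 and 1444 CPM), Cx3cr1 (1013 and 1038 CPM), Klrb1c (896.3 and 1041 CPM) or Gzma (14716 and 14982 CPM). Among the Ly49 genes, Klra7 was 1283 CPM with Cd8a and 922.6 without. Antibody medians with and without Cd8a were 1.975 and 1.513 for NK1.1, 1.777 and 1.488 for TCRβ, 0.852 and 1.159 for CD5, and 1.155 and 1.505 for CD4. The 124 cells with a Cd4 UMI had a median CD4 antibody value of 1.939, against 1.232 in the 219 without and the antibody value was thus higher where the transcript was seen. Cd4 UMIs were not special to cluster 11 in this library, since 32.68% of the cells of TG cluster 8 held one (13.73% thinned), against 2.091% of WT cluster 8 and 3.794% of TG mature B cells. Even in TG cluster 12, named CD8αβ T, 20.88% of cells held Cd4 without Cd8a and 18.47% held both. The CD4 antibody median was 1.410 there and 1.399 in TG cluster 11. The split by UMIs is therefore no division into coreceptor subsets.

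Variable segments of the T cell receptor β chain were sparse but mixed. The TG cells of cluster 11 held 44 UMIs of Trbv genes in 38 cells, spread over 12 of the 17 segments in the table, and the leading segment was Trbv17 with 7 UMIs (15.91%). Cluster 3 held 59 Trbv UMIs, of which 22 (37.29%) were Trbv13-3, and cluster 12 held 46 over 15 segments. The Trbv sum was 47.42 CPM in cluster 11, 12.38 in cluster 8 and 1.594 in mature B cells. The WT cells of cluster 11 held 0 Trbv UMIs at a depth where 3 UMIs would be 64.8 CPM.

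Genes of NK identity were present at the same time. Klrb1c, which encodes NK1.1 (chromosome 6, 128778485 to 128789215), was 999.1 CPM in TG cluster 11, with 1111 in cluster 3, 1235 in cluster 8, 149.7 in cluster 12 and 11.48 in mature B cells. Ncr1, the NKp46 receptor (chromosome 7, 4337724 to 4345164, plus strand), was 411.7 CPM, with 505.6, 882.7, 34.03 and 2.232. The adaptors that carry activating signals were also high, with Tyrobp at 1371 CPM and Fcer1g at 1577 against 77.6 and 89.85 in cluster 12. Against cluster 12, 6 of 13 NK identity genes were at least 2-fold higher and 0 lower (median 0.92), beside 3.36% and 2.01% of all genes. Against cluster 3, 0 of 13 were higher and 1 lower, beside 2.13% and 4.76%. Against cluster 8, 0 of 15 were higher and 5 lower (median -0.63), beside 4.50% and 3.38%.

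The genes below cluster 8 included the factors that define conventional NK cells. Eomes, the T-box factor of conventional NK cells, was 59.28 CPM in TG cluster 11, against 51.95 in cluster 3, 391 in cluster 8 and 100.7 in cluster 12 (log2 -2.72 against cluster 8, -3.17 to -2.29). Irf8, a factor of NK maturation and memory, was 71.13 CPM against 92.49, 812 and 34.03. Tbx21, which encodes T-bet, was 397.7 CPM against 236.9, 421 and 343.1, within 2-fold of each. Syk, a kinase coupled to Tyrobp and Fcer1g, was 21.56 CPM against 39.28, 150.4 and 20.42. The WT cells of cluster 11 kept more of the cluster 8 pattern, with Eomes at 194.4 CPM against 28.78 in WT cluster 3 and 691.7 in WT cluster 8, Irf8 at 561.6 and Syk at 108.

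Most other NK identity genes of WT cluster 11 were within 2-fold of WT cluster 8. Ncr1 was 820.8 CPM against 988 in WT cluster 8, Klrb1c 1555 against 1418 and Fcer1g 2894 against 2469. Of 15 such genes, 0 were at least 2-fold higher and 3 lower (median -0.03), beside 6.85% higher and 13.1% lower of all genes. Against WT cluster 12, 9 of 11 were higher and 0 lower (median 2.37), beside 7.98% higher and 12.7% lower of all genes. Ncr1 was at least 60.09-fold higher than in WT cluster 12 when the 0 Ncr1 UMIs of cluster 12 are set at the floor of 3. Ncr1, Klrb1c, Tyrobp and Fcer1g had enough UMIs to enter that comparison through cluster 11 alone. Against WT cluster 3, 3 of 13 were higher and 0 lower, beside 7.60% higher and 14.9% lower of all genes. The mature NK genes of the WT cells gave 5 of 8 higher and 0 lower than in cluster 3 (median 1.45). They gave 4 of 16 higher and 0 lower than in cluster 8 (median 0.23, or 0.20 with the floor of 3 UMIs), and 4 of 10 higher and 1 lower than in cluster 12. In the same order, 7.60%, 6.85% and 7.98% of all genes were higher and 14.9%, 13.1% and 12.7% lower.

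CD3 and NK receptors were found in the same cells. Both a CD3 UMI and a UMI of Klrb1c or Ncr1 were present in 316 of 343 TG cells of cluster 11, 92.13% (88.75 to 94.75), or 68.22% (63.01 to 73.12) after thinning to 1000 UMIs. The share was 87.83% in TG cluster 3, 29.41% in cluster 8, 30.52% in cluster 12 and 1.167% in mature B cells, or 65.02%, 13.73%, 12.85% and 0.09728% thinned. It was 88.05% (59.02% thinned) in TG cluster 2, named CD8αα T, and 51.86% (27.05%) in TG cluster 0, named NKT, so co-detection was not particular to cluster 11. An NK receptor UMI without a CD3 UMI was present in 0 of 343 TG cells of cluster 11 (exact upper limit 1.07%), against 69.28% of cluster 8. That 0 depended on depth, since after thinning the share was 3.499% (1.821 to 6.031), against 71.90% of cluster 8. The proportions were turned round in WT cluster 11, with 16 of 22 cells (72.73%) holding an NK receptor and no CD3 UMI, and 22.73% holding both, or 0 of 22 thinned (exact upper limit 15.44%). An NK receptor without a CD3 UMI was present in 78.05% of WT cluster 8. Both were present in 67.32% of WT cluster 3 (44.44% thinned), so co-detection was common in that WT set.

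**Figure D3:**
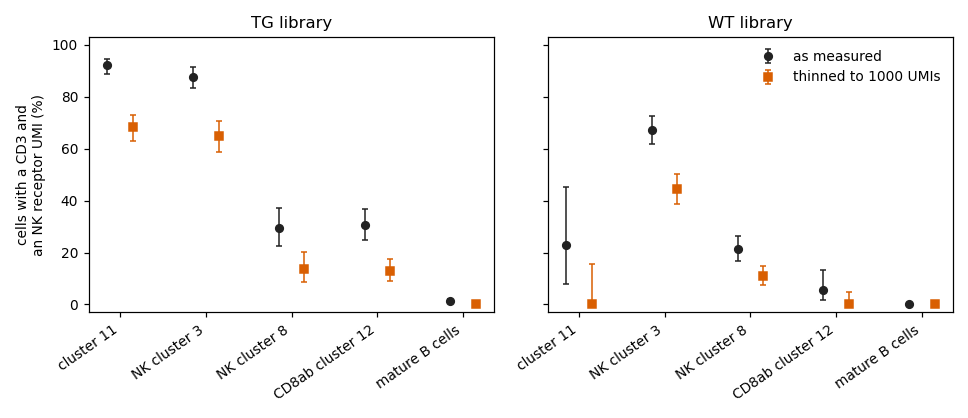
Points give the percentage of cells with a UMI of a CD3 gene and a UMI of Klrb1c or Ncr1, as measured and after thinning every cell to 1000 UMIs, by cluster and library, with exact binomial 95% intervals. TG cluster 11 stood at 92.13% as measured and 68.22% thinned, and mature B cells at 1.167% and 0.09728%.

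The Ly49 receptors were high in cluster 11 for some members and near 0 for others. Klra7, the Ly49G receptor (chromosome 6, 130218605 to 130233322), was 1026 CPM in TG cluster 11, with 278.8, 833.2 and 34.03 in clusters 3, 8 and 12. Klra6, the Ly49F receptor (130013033 to 130026954), was 338.4 CPM, with 63.35, 26.54 and 16.34, and was seen in 145 of 343 cells. Klra9, the Ly49I receptor (130178675 to 130193112), was 684.4 CPM, with 351, 475.9 and 166.1. Together with Klra1, these 3 inhibitory receptors of MHC class I were higher in cluster 11 than in clusters 3, 8 and 12, while Klra3, given below, was not higher than in clusters 8 and 12. A like pattern was seen in TG cluster 2, the 410 cells named CD8αα T, where Klra1 was 523.9 CPM, Klra6 462, Klra7 1394 and Klra9 602.5. Summed over 11 Ly49 genes, cluster 11 had 2999 CPM and cluster 2 had 3224. Cluster 2 differed in the other markers, with Cx3cr1 at 27.18 CPM, Klrg1 at 133.6 and S1pr5 at 46.05. Klra5 (Ly49E) was 142.3 CPM against 68.42, 15.92 and 6.807, and Klra3 (Ly49C) was 95.92 against 36.74, 233.5 and 104.8.

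The activating receptors Klra4 and Klra8 were low in cluster 11. Klra4, the Ly49D receptor (130043731 to 130067271), was 3.233 CPM in TG cluster 11 (3 UMIs in 3 cells) and 944.7 in cluster 8, a 292.2-fold lower value (log2 -8.19, -10.47 to -6.64). Klra8, the Ly49H receptor that binds a cytomegalovirus protein (130115226 to 130129898), was 16.17 CPM in TG cluster 11 and 1049 in cluster 8, 64.89-fold lower (log2 -6.02, -6.87 to -5.29), and 60% of its 15 UMIs were in 1 cell. Both receptors were also near 0 in TG cluster 3 (2.534 CPM each), in cluster 12 (5.445 CPM each) and in cluster 2 (5.285 and 7.55 CPM), so low values of both were not special to cluster 11. A UMI of either was present in 10 TG cells of cluster 11 (2.915%, 1.458% thinned) and in 73.86% of cluster 8 (59.48% thinned), with 0.9728% in mature B cells. Klra10 had 1 UMI, Klra17 had 2 and Klra2 had 0 in the TG cells.

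As a list, 5 of 6 Ly49 genes were at least 2-fold higher than in cluster 3 and 0 lower (median 1.62), and 5 of 6 were higher than in cluster 12 (median 4.29, or 4.38 with the floor of 3 UMIs). Against cluster 8, 3 of 8 were higher and 3 lower (median 0.41). The shares of all genes higher were 2.13%, 3.36% and 4.50% in these comparisons, and 3.38% were lower than in cluster 8. Klra1, Klra5, Klra6 and Klra7 had 9, 5, 12 and 25 UMIs in cluster 12 and reached the minimum of 30 only through cluster 11. The count and median against cluster 12 were thus partly set by that minimum. Several of these genes are near-identical copies side by side on chromosome 6, so reads that match more than 1 of them may be counted under the wrong member. The deposited counts give no way to separate such reads, and the split between members is uncertain to that extent.

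The WT cells of cluster 11 differed from the TG cells in the same gene family. Klra9 was 2095 CPM in WT cluster 11, against 285.4 in WT cluster 3 and 788.2 in WT cluster 8. Klra4 was 172.8 CPM (8 UMIs) and Klra8 was 324 CPM (15 UMIs in 2 cells), below the 1078 and 1711 CPM of WT cluster 8 by 2.64 (1.65 to 3.86) and 2.40 (1.67 to 3.24) on the log2 scale. A UMI of either was present in 6 of 22 cells, 27.27% (18.18% thinned), against 80.84% of WT cluster 8. The activating members were thus lower than in cluster 8 in both libraries, and nearer to 0 in TG.

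**Figure D4:**
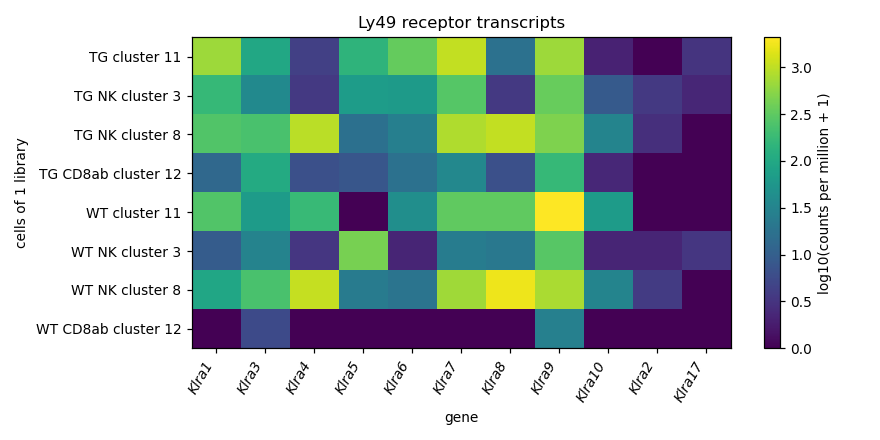
The heat map gives log10(CPM + 1) of 11 Klra genes in clusters 11, 3, 8 and 12 of the TG and WT libraries. Bright cells are high. In TG cluster 11 Klra1, Klra7 and Klra9 are bright (689.8, 1026 and 684.4 CPM) and Klra4 and Klra8 dark (3.233 and 16.17 CPM), with 944.7 and 1049 CPM for Klra4 and Klra8 in TG cluster 8.

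Other lectin-like receptors were mostly within 2-fold of the NK clusters or below them. Klrb1a was 235 CPM in TG cluster 11, against 147, 318.4 and 1.361 in clusters 3, 8 and 12, and Klrb1b, an inhibitory member of the same family, was 19.4 against 105.2, 169.8 and 0. Klri2 was 1.078 CPM (1 UMI) against 528.9 in cluster 8. Klrc1, which encodes the inhibitory NKG2A, was 72.21 CPM against 125.4, 261.8 and 92.57. Of 12 genes of this family, 1 was at least 2-fold higher and 5 were lower than in cluster 8 (median -0.37), 0 were higher and 2 lower than in cluster 3, and 6 of 10 were higher than in cluster 12. The shares of all genes higher and lower were 4.50% and 3.38%, 2.13% and 4.76%, and 3.36% and 2.01% in these comparisons.

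In joint patterns of the markers, the difference between cluster 11 and the CD8αβ cells lay in Klra1. The markers were given for the cluster and the clusters were built from such genes, so the shares are a description only. UMIs of Cx3cr1 and Klrg1 together were present in 70.85% of TG cluster 11 and 66.27% of cluster 12, or 38.78% and 34.94% thinned. When Klra1 was asked for as well, 126 cells of TG cluster 11 remained (36.73%, 11.37% thinned), against 0.8032% of cluster 12, 14.38% of cluster 8 and 0.9756% of cluster 2 (0.4016%, 4.575% and 0.2439% thinned). Cells with UMIs of Cd3e, Klrb1c, Klrg1 and Cx3cr1 numbered 389 among the TG cells of the filtered table, and 207 of them lay in cluster 11, which was 60.35% of its cells (54.96 to 65.56). Of the 7282 WT cells 5 held all 4 genes, 1 of them in cluster 11.

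A gene of tissue residency differed between the libraries. Itga1, the CD49a chain, was 294.2 CPM in TG cluster 11, with 515.7 in cluster 3, 28.3 in cluster 8 and 119.8 in cluster 12. In WT cluster 11 it was 21.6 CPM (1 UMI), with 491.7 and 5.512 in WT clusters 3 and 8. In the TG cells the level thus lay between those of clusters 3 and 8, and in the WT cells it was near that of WT cluster 8. Between the libraries Itga1 was higher in TG cluster 11 by 3.77 on the log2 scale (1.28 to 9.08), an interval made wide by the 1 UMI in WT. It was also higher in TG in cluster 8 (28.3 and 5.512 CPM) and alike in cluster 3 (515.7 and 491.7 CPM), so a higher TG value was not particular to cluster 11.

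ILC1 genes with enough counts were mostly below cluster 3 and above cluster 8, as Itga1 was. Cxcr6, a liver sinusoid homing receptor, was 29.1 CPM against 130.5, 12.38 and 57.18. Of 9 ILC1 genes, 1 was at least 2-fold higher and 6 lower than in cluster 3 (median -1.27), whereas 5 of 7 were higher and 0 lower than in cluster 8 (median 1.27), beside 2.13% higher and 4.76% lower of all genes against cluster 3 and 4.50% and 3.38% against cluster 8. Between the libraries, 4 of 7 were higher in TG and 1 lower (median 0.91, or 1.48 with sums of 0 taken at 3 UMIs), beside 12.3% higher and 10.4% lower of all genes. The 14 listed genes held 1053 UMIs in TG cluster 11, 216 in TG cluster 8 and 19 in WT cluster 11. The counts against these 2 sets were thus partly set by the UMI minimum for a comparison. Summed with no minimum, the level was 1135 CPM in TG cluster 11, 2115 in TG cluster 3, 382.1 in TG cluster 8 and 410.4 in WT cluster 11. Xcl1, a chemokine that attracts cross-presenting dendritic cells, is no member of that list and was 35.57 CPM in TG cluster 11, below the 822.3 of cluster 3 and the 253 of cluster 8 and above the 10.89 of cluster 12. Of 13 genes of immature NK cells, 0 were higher and 9 lower than in cluster 3 (median -1.18, beside the 2.13% and 4.76% above), among them Cd7 at 1292 CPM against 4119 and Il7r, the IL-7 receptor, at 18.32 against 114. Ikzf2, which encodes Helios, was 322.3 CPM in TG cluster 11 and 105.2, 65.45 and 36.76 in clusters 3, 8 and 12, higher than in each of these, and 506.6 in cluster 2.

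Cytotoxic genes were high in the TG cells without standing above every neighbour. Gzma, granzyme A, was 14906 CPM (14658 to 15156) in TG cluster 11, with 6202 in cluster 3, 13685 in cluster 8 and 9724 in cluster 12. Its WT value was 14882 CPM (13792 to 16036), a log2 difference between the libraries of 0.00 (-0.11 to 0.11). Gzmb, granzyme B, was 2092 CPM in TG and 2959 in WT cluster 11, and Prf1, perforin, was 607.9 and 1598. Ccl5, a chemokine of memory lymphocytes, was 30585 CPM in TG cluster 11 against 14036, 19656 and 28509. Of 14 cytotoxic genes 2 were at least 2-fold higher and 1 lower than in cluster 3, and 2 were higher and 2 lower than in cluster 8, beside 2.13% and 4.76% and then 4.50% and 3.38% of all genes. The lower ones against cluster 8 included Prf1 (1364 CPM there), and Ccl3, a macrophage-attracting chemokine, was lower too, at 399.9 CPM against 1592.

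Cytokine receptor genes were lower than in the NK clusters for some members and near cluster 12 as a sum. Il2rb, the IL-2 and IL-15 receptor β chain, was 942 CPM in TG cluster 11, against 2558, 1925 and 569 in clusters 3, 8 and 12. Il18r1, the IL-18 receptor, was 12.93 CPM against 39.28, 194.6 and 73.51, and in WT cluster 11 it was 367.2 against 75.56, 351.4 and 177.6. Of 14 cytokine receptor genes, 1 was at least 2-fold higher and 5 lower than in cluster 3. Against cluster 8, 0 of 13 were higher and 2 lower, and against cluster 12, 0 of 14 were higher and 2 lower, with sums of 2789 CPM in cluster 11 and 2670 in cluster 12. The WT cells had another balance, with 4 of 13 higher and 1 lower than in WT cluster 3 (7.60% and 14.9% of all genes), and between the libraries 0 of 9 were higher in TG and 5 lower (12.3% and 10.4% of all genes). Immediate early genes, which respond to stimulation and to cell handling, gave 0 higher and 5 lower of 17 against cluster 3, 0 and 3 of 16 against cluster 8, and 0 and 1 of 17 against cluster 12. Over all genes the shares higher and lower were 2.13% and 4.76% against cluster 3, 4.50% and 3.38% against cluster 8, and 3.36% and 2.01% against cluster 12. Jun, an immediate early gene, was 427.9 CPM in cluster 11 against 1395, 1337 and 471. In TG the 11 TGF-β pathway genes with enough counts held none past 2-fold against clusters 3, 8 or 12 (medians -0.13, -0.14 and 0.04), and 12 MHC class I genes held none either. In WT, 1 of 10 TGF-β pathway genes was higher and 3 lower than in cluster 3 (7.60% and 14.9% of all genes), and 0 of 9 were higher and 3 lower than in cluster 8 (6.85% and 13.1%). Of 12 MHC class I genes 0 were higher and 1 lower in each WT comparison, where 14.9%, 13.1% and 12.7% of all genes were lower than in clusters 3, 8 and 12. The share of all genes higher than in WT cluster 12 was 7.98%.

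Among the 10 highest and 10 lowest ratios of each comparison were genes outside these lists. Against cluster 3, the highest in TG cluster 11 included As3mt (73.29 against 5.068 CPM), Nhsl2 (54.97 against 1.267) and Rap1gap2, a regulator of the Rap1 GTPase (203.7 against 30.41), and the lowest included Asb2 (3.233 against 149.5) and Socs2, a suppressor of cytokine signalling (8.622 against 182.5). Against cluster 8, Camk4, a calcium-dependent kinase of T cells, was 72.21 CPM against 1.769, and Plcg1, a phospholipase of T cell receptor signalling, was 90.53 against 8.845. The lowest against cluster 8 included Car2, a carbonic anhydrase (1.078 against 281.3), and Cd9, a tetraspanin (2.156 against 228.2). Against cluster 12, Atp1b1, a sodium pump subunit, was 183.2 CPM against 9.529, and Ifi27l2a, an interferon-induced gene, was 25.87 against 219.2.

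Surface proteins were read as centred log ratios, the natural log scale of the deposited antibody values, given as medians over cells. CD49a was 3.243 (quartiles 2.653 and 3.696) in TG cluster 11, with 3.399 in cluster 3, 0.744 in cluster 8 and 2.046 in cluster 12. In WT it was 0.561 in cluster 11, with 3.319, 0.504 and 0.462 in clusters 3, 8 and 12, so cluster 12 was higher in TG as well. CD49b, an integrin of conventional NK cells, was 2.309 (1.793 and 2.731), with 1.343, 2.450 and 1.747, so that the TG cells had both integrins at the protein level. NK1.1 was 1.622 (1.160 and 2.268), with 1.155, 1.428 and 0.943, and 0.546 in mature B cells.

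Medians of the TCRβ, CD5, CD90.2 and CD3 proteins in TG cluster 11 lay between those of clusters 8 and 12. TCRβ was 1.548 (1.176 and 1.951) in TG cluster 11, 1.537 in cluster 3, 0.922 in cluster 8, 2.700 in cluster 12 and 0.704 in mature B cells. The quartiles of cluster 11 thus lay above the median of cluster 8 and below that of cluster 12. CD5 was 1.044 against 1.644, 0.843 and 2.479, CD90.2 was 3.112 against 3.416, 2.757 and 4.620, and the CD3 antibody was 0.442 against 0.408, 0.333 and 0.747, with 0.276 in mature B cells. CD8β was 0.310 in cluster 11 and 1.648 in cluster 12, but 1.640 in mature B cells as well, so this antibody is a poor measure of CD8β here. In WT cluster 11, TCRβ was 1.020, with 0.777, 0.823 and 2.477 in WT clusters 3, 8 and 12. No median was below 0 and several were 0, so a difference of the natural log of 2 on this scale need not be a 2-fold change. Of 49 antibodies, medians differed by at least that much for 3 higher and 0 lower than TG cluster 3. The counts were 2 higher and 3 lower than cluster 8, and 1 higher and 4 lower than cluster 12. These counts depended on the measure. By share of antibody counts, 5 were lower than cluster 3, 4 higher and 6 lower than cluster 8, and 9 higher than cluster 12.

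**Figure D5:**
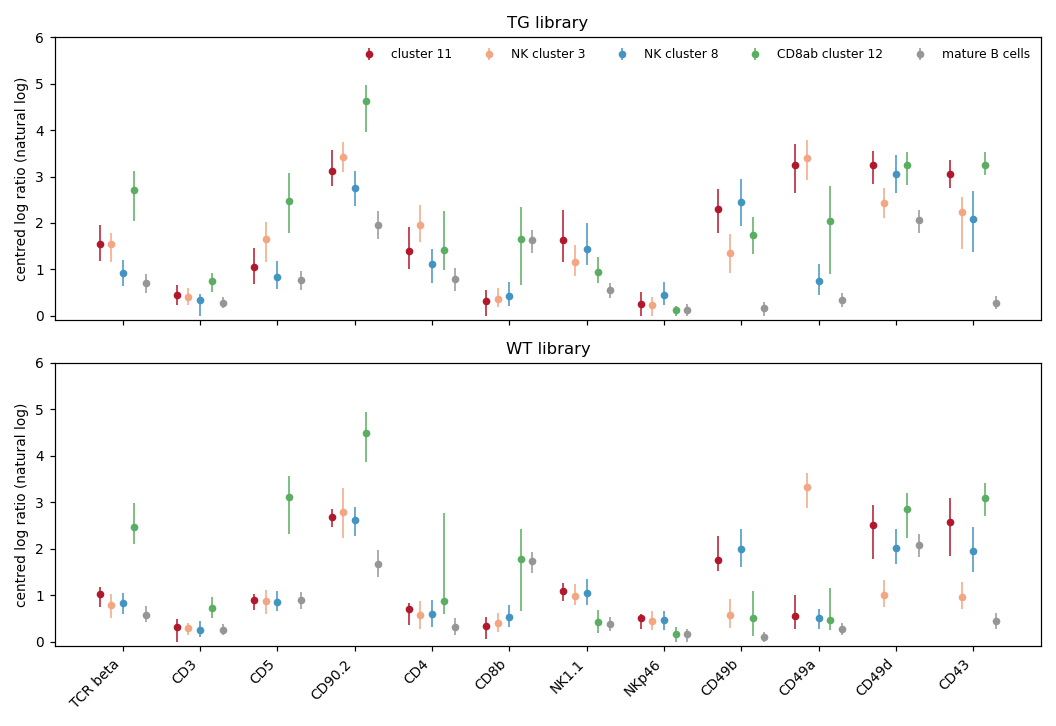
Points give the median centred log ratio (natural log scale) of 12 antibodies with lines for the quartiles over cells, in clusters 11, 3, 8 and 12 and mature B cells of each library. TG cluster 11 has a CD49a median of 3.243 beside 0.744 in cluster 8, and a TCRβ median of 1.548 between 0.922 in cluster 8 and 2.700 in cluster 12.

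Between the libraries, the cells numbered 11 differed in the genes that would name them. Higher in TG than WT were Cd3e (log2 3.43, 2.31 to 4.88), Cd3g (3.15), Klra6 (2.97), Cd160 (3.69), Itga1 (3.77, 1.28 to 9.08) and Cd7 (2.20), and lower were Rhob (-2.40), Bcl2, a survival factor (-1.75), and Klra9 (-1.61). Over all genes 12.3% were at least 2-fold higher and 10.4% lower. Of 12 T cell identity genes, 8 were higher and 1 lower (median 1.66, or 1.45 with sums of 0 taken at 3 UMIs). None reached the UMI minimum for a comparison on the WT counts alone (87 UMIs over 16 genes, against 5673 in TG). The count of 8 was thus partly set by that minimum. Summed over all 16 genes, with no minimum, the level was 6114 CPM in TG and 1879 in WT. Immediate early genes, which respond to cell handling too, gave 0 of 16 higher in TG and 7 lower. Their part in the differences between the libraries was not tested. With library scaling by the trimmed mean of M-values, 1016 genes were higher and 224 lower in place of 616 and 524, because that scaling shifts all log2 ratios by 0.29. Cx3cr1 was also higher in TG than WT (1.25), as it was in clusters 3 (3.66), 8 (3.15) and 12 (2.12), and Klrg1 was 1.25 in cluster 11 beside 6.57, 1.31 and 2.34. Both markers were therefore higher in the TG library in each of these 4 sets, and the Cx3cr1 difference was smallest in cluster 11. Mature B cells went the same way at low counts, with 28 Cx3cr1 UMIs in TG and 7 in WT, and 27 and 6 of Klrg1. Their totals were 3135929 and 2832045 UMIs, so the higher TG values were not confined to the NK and T sets.

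The same scaling changed the balance of calls elsewhere. For TG cluster 11 against cluster 3 it gave 197 higher and 255 lower in place of 144 and 321, with a shift of 0.09. For the WT cells it gave 236 and 1034 in place of 377 and 741 against cluster 3 (shift -0.20), 148 and 835 in place of 301 and 577 against cluster 8 (-0.24), and 62 and 352 in place of 132 and 210 against cluster 12 (-0.30). Leaving ribosomal and mitochondrial genes out of the totals gave 90 and 275 against cluster 12 in WT (-0.16).

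Transcripts of other cell types were present, and those of B cells were not rare in the TG cells. Summed over 10 B cell genes, TG cluster 11 had 1456 CPM, with 1871, 3878 and 1231 in clusters 3, 8 and 12 and 42371 in mature B cells. WT cluster 11 had 151.2 CPM, with 6 of the 10 genes at 0, and WT clusters 3, 8 and 12 had 633.2, 774.4 and 696.6. Igkc, the immunoglobulin κ constant gene, made up 822.4 CPM of the TG sum and 43.2 of the WT sum. It was seen in 290 of the 343 TG cells of cluster 11. Of 10 macrophage genes 5 were at 0 in TG cluster 11, with a sum of 68.98 CPM beside 61.26 to 68.99 in TG clusters 3, 8 and 12, and 3 hepatocyte genes were all at 0. The part of these transcripts in the differences above was not tested.

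Across 5880 genes, the summed profile of TG cluster 11 was most like that of TG cluster 12 (Pearson r = 0.9517 of log2(CPM + 10)), followed by TG cluster 3 (0.9453), TG cluster 2 (0.9389) and TG cluster 8 (0.9343). The profile of WT cluster 11 was most like WT cluster 8 (0.8366), then TG cluster 8 (0.8274), and TG cluster 11 came next (0.8056). These values are across genes, which are not independent replicates, and those of WT cluster 11 rest on 46296 UMIs. The first 4 values for TG differ by under 0.02, so their order is given without a reading. The cells of TG cluster 11 are described by their leading genes, as Cx3cr1, Klrg1 and Ly49 positive cells with both CD3 and NK1.1 transcripts, with no other name given.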

How the data were processed

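Single cells were captured with BD Rhapsody beads, and RNA and antibody tags were sequenced together. The authors used STAR within the BD Rhapsody pipeline (version 1.9 per the file headers) to map reads to mm10, and deposited UMI counts per gene and cell, antibody counts, centred log ratios of the antibodies (a natural log scale), the percent of mitochondrial counts, cell type names and the clusters of a Seurat integration of both libraries. The thresholds of the cell filter are not given in the sources used here. The filtered table holds 13528 genes, of which 13468 matched the GENCODE M21 annotation of mm10, used for positions.

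Here the deposited counts were added up over the cells of each library and cluster and scaled to CPM, with Poisson intervals (exact). Ratios carry exact conditional binomial intervals and shares Clopper-Pearson intervals, all at 95%. No test was made, since each genotype had 1 library, and genes were counted past 2-fold. A gene entered a comparison with at least 30 UMIs over both sums. It could do so through 1 set alone, which favours calls toward the set where the gene is high. A sum of 0 was taken at 3 UMIs, which bounds a fold from below only where the other level lies above that floor. Shares of cells were repeated after thinning to 1000 UMIs per cell. Doublets were marked with Scrublet in scanpy 1.11.5 (expected rate 5%) and kept: 39 TG and 241 WT cells. Likeness used clusters with at least 20 cells and genes with a pseudocount of 10 CPM. Trimmed mean scaling came from edgeR 4.0.16 in R 4.3.3, and other steps used Python 3.11.15, numpy 2.4.6, scipy 1.17.1, pandas 2.3.3 and matplotlib 3.10.9. The ratio step was tested on simulated data.

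The cells, 28 gene lists (341 genes, 326 in the table) and comparisons were chosen with earlier results of these data known. Genes named are members of those lists, and per comparison the 10 highest and 10 lowest ratios among genes with at least 10 cells with a UMI and at most 20% of UMIs in 1 cell, receptor segments, Xist and Y-linked genes left out. Alternatives were another UMI minimum, thinning, TMM scaling, other totals, leaving out doublets, equal weight per cell, another denominator and, for antibodies, the share of counts. Results for 1 gene and its protein are not reported here.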

Additional observations from a re-analysis of the deposited data

Results flagged for a closer look

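Relative to cluster 3, Il18r1 in cluster 11 had opposite directions in the libraries, with a log2 ratio of -1.60 (-2.70 to -0.60) in TG and 2.28 (1.42 to 3.07) in WT, and the difference between the libraries was not tested. Il18r1 was likewise lower than in cluster 12 in TG (-2.51) and higher in WT (1.05), which was not tested. Klra5 was above cluster 3 in TG (1.06) and, with 0 UMIs in the WT cells and 3 UMIs taken in their place, below it in WT (-2.76), again with no test.

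Outside the filtered table, the library that holds the TG cells had 5379 further cell indices of unstated genotype, and 3.867% of them (208; 3.368 to 4.417) held UMIs of Cd3e, Klrb1c, Klrg1 and Cx3cr1 together, against 0.101% of the 16829 indices outside the table in the other library. These indices entered no comparison.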

How the results depend on the processing

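No paired analysis was possible because each genotype had 1 library, and for the same reason no replicate could be left out. Of 2522 single values under an alternative, 2422 were labelled the same, 96 moved and 4 reversed. For genes, the same meant inside the main interval, and for antibodies still past the natural log of 2 in the same direction. Of the 2422, 372 and 272 came from other UMI minima, which left the ratios as they were. Another 63 came from the unfiltered libraries, whose counts were equal to those used here. None of these could move. Reversals were Mat2b in WT against cluster 8 (-0.49 thinned, 1.11 before), Cxcr6 between the libraries (0.27 with equal weight per cell, -1.16 before) and, by share of antibody counts, CD44 in WT against clusters 3 (0.027) and 12 (0.157). Counts of genes past 2-fold moved with the UMI minimum, since fewer or more genes enter. At 10 UMIs, a gene with 0 UMIs in WT cluster 11 was taken at 3 UMIs (64.8 CPM) there. Such a gene could be called higher in WT cluster 11 than in WT clusters 3 or 8 or TG cluster 11 with no UMI seen. The 2196, 1761 and 2360 below can hold such calls and are no measure of genes higher in WT cluster 11. At 10 UMIs they were 367 higher and 752 lower (TG against cluster 3), 714 and 529 (TG against 8), 559 and 397 (TG against 12), 2196 higher (WT against 3), 1761 higher (WT against 8), 642 and 653 (WT against 12) and 2360 lower (TG against WT). At 100 UMIs they were 60 and 88, 68 and 59, and 60 and 26 for TG, 73 and 241, 23 and 87, and 26 and 45 for WT, and 199 and 70 between libraries. Thinned, they were 170 lower, 169 and 112, and 136 and 70 for TG, 174 and 426, 129 and 286, and 40 and 58 for WT, and 349 and 213 between libraries. With TMM they were 236 higher, 148 higher, 62 and 352 for WT, and 1016 and 224 between libraries. Of T and NK cells alone, cluster 11 was 11.87% in TG and 0.4597% in WT. In TG, thinned shares were 93.59% for CD3 and 91.55% for the receptor constants. In WT, the CD3 sum was 194.2 CPM without doublets (345.6 with them) and the constants 655.5 without doublets and 727.3 thinned (1123). By share of antibody counts, antibodies past 2-fold were 5 lower, 4 higher and 6 lower, and 9 higher for TG, 13 higher, 6 and 11, and 10 higher for WT, and 6 and 13 between libraries. The cause of these moves in antibodies was not tested. Counting from the unfiltered library files was run for 10 genes. In WT cluster 11, with 22 cells, values under 64.8 CPM rest on fewer than 3 UMIs.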

Other observations

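Cells with UMIs of Cd3e, Klrb1c, Klrg1 and Cx3cr1 were also found in clusters of other names. Of the 389 such TG cells, 72 lay in cluster 7 of the cells named CD8αβ T (22.57% of its 319 cells), 45 in cluster 12 (18.07%), 18 in NK cluster 3 (6.844%) and 14 in NK cluster 8 (9.15%). The combination was also seen under B cell and myeloid names, with 7 of the 29 cells of mature B cluster 17 (24.14%) and 6 cells of macrophage cluster 15 (6.742%).

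Igkc was higher in the TG than in the WT library in each of these sets apart from B cells, with log2 ratios of 4.25 in cluster 11, 2.86 in cluster 3, 3.87 in cluster 8, 1.43 in cluster 12 and 0.04 in mature B cells. Transcripts of red cells and platelets were seen in the WT clusters 3 and 8, at sums of 2724 and 640.7 CPM, and at 2.156 CPM in TG cluster 11 and 0 in WT cluster 11.

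Trdc, the γδ T cell receptor constant gene, was 30.18 CPM in TG cluster 11 and 250.5 in cluster 12, where it was seen in 26 of 249 cells with up to 24 UMIs in 1 cell, and Tcrg-C2 was 256.5 in cluster 11 against 210.3, 28.3 and 140.2 in clusters 3, 8 and 12.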
